A study of Homo sapiens with 16 samples.

Results

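The transcripts of 10 amino acid transporter genes (SLC1A4, SLC1A5, SLC3A2, SLC6A9, SLC7A1, SLC7A5, SLC7A6, SLC38A1, SLC38A2 and SLC43A1) were followed in lung carcinoma cells expressing wt MET or MET∆14, the receptor without its juxtamembrane domain, during stimulation with hepatocyte growth factor (HGF). The genes were chosen by symbol from the 42351 genes of a table of read counts, and all 10 were among the 15067 genes that passed the filter on low counts. The table held 16 libraries, with 2 biological replicates of each line at 0, 3, 6 and 12 h of HGF. All cultures, those at 0 h included, had first been kept without serum, for 12 h as labelled. The paper's methods give a longer time without serum. NCI-H596, an adenosquamous carcinoma line whose exon 14 is skipped, was the MET∆14 line, and cells labelled A549, an adenocarcinoma line, were those with wt MET. In the paper's text the cells with wt MET are named EKVX. Each MET status was 1 cell line and 0 h was the only time without HGF, so MET∆14 cannot be told apart from other differences between the lines, nor HGF from elapsed time.

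The 16 libraries held 10158590 to 23909304 counts each. Levels are given as CPM, which corrects each count for its library's total after adjustment by edgeR's TMM factors, and differences as log2 fold changes with a standard error (SE) from edgeR's quasi-likelihood model over all 16 libraries. A gene was called at an adjusted p (Benjamini and Hochberg, over the 15067 genes) under 0.05. The chi-square of the counts of 2 replicates per degree of freedom was between 2.75 and 4.48 in 6 of the 8 conditions, 9.80 for wt MET at 0 h and 34.1 for MET∆14 at 12 h, so the replicates of these last conditions stood farther apart than the others. Many results that a library of theirs decides are given with and without it, but not all. Some genes not called over all 16 libraries were called with 1 of these libraries left out and are not listed. MET, the receptor itself, was between 1206 and 1539 CPM in wt MET cells and between 370 and 443 CPM in MET∆14 cells. The epithelial keratins KRT8 and KRT18 were at 358 CPM or more in every library, PTPRC of leukocytes had at most 2 counts, and of the fibroblast markers COL1A2 and PDGFRB had at most 10 counts while COL1A1 was between 10.8 and 33.3 CPM over both lines. The squamous markers KRT5, KRT6A and TP63 were at 96.5 CPM or more in MET∆14 cells and at 2.56 CPM or less in wt MET cells, whereas EPCAM and CDH1, markers of epithelial cells, were low in wt MET cells, at no more than 2.97 and 12.6 CPM. CDKN2A, a gene deleted in A549, had 0 counts in every wt MET library. CPM are shares of a library, and fewer cells of a kind or less RNA per cell cannot be told apart in them.

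Amino acids enter cells through transporters that differ in substrate and driving force. SLC7A5, the light chain also called LAT1, exchanges large neutral amino acids such as leucine, and it reaches the plasma membrane bound to the heavy chain SLC3A2 (CD98), which also carries SLC7A6 and other light chains. Exchangers move 1 amino acid in for another out, so they work beside the sodium-coupled loaders SLC38A1, SLC38A2 and SLC6A9, which build up the pool that is exchanged. Leucine and arginine that enter by these routes are sensed by the mTORC1 pathway, and several transporter genes are induced through ATF4 when amino acids run short or by MYC in growing tumour cells.

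Because ATF4 binds a composite element with C/EBP proteins and MYC binds the E box, both motifs were looked for on both strands of the promoter windows of RefSeq (GRCh38.p14, 250 bases before to 50 after a start site). Windows were found for all 10 genes, 17 in all. TGATGNAAN, in which N is any base, was in 5 of the 17 windows, 1 each of SLC1A4, SLC1A5, SLC38A1, SLC3A2 and SLC7A1, and in 3.61% of all 35116 windows. CACGTG, the E box, was in 3 of the 17, of SLC1A5, SLC43A1 and SLC7A5, and in 7.26% of all windows. The matches are letters in a window and not sites shown to be bound. They are shown in capitals for the genes whose changes carry the results, each 5′ to 3′ along the strand of its gene, with the composite element first.
SLC1A4, chr2:64989361-64989404, plus strand: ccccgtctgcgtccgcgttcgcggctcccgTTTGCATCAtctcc
SLC38A1, chr12:46266507-46266550, minus strand: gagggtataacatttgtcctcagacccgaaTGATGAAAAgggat
SLC3A2, chr11:62881725-62881748, plus strand: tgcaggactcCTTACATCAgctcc
SLC7A1, chr13:29595663-29595691, minus strand: ggcgcactgcTGATGAAACctggcgccgg
SLC1A5, chr19:46784873-46784941, minus strand: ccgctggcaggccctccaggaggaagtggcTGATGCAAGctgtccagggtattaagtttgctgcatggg
SLC7A5, chr16:87869602-87869667, minus strand: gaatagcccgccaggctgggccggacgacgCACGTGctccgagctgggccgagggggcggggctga
SLC1A5, chr19:46787308-46787373, minus strand: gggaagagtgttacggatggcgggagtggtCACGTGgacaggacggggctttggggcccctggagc
The composite element began 8 bases before the start site of SLC1A4 and 4 before that of SLC38A1, and it lay after the start site in SLC3A2 and SLC7A1. SLC1A4 and SLC3A2 held it as the reverse complement. The windows of SLC1A5 that held the 2 motifs belong to different start sites of the gene.

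Before HGF, 9 of the 10 transporters differed between the lines, 3 higher and 6 lower in MET∆14 cells, in a comparison that called 80.2% of all genes tested. SLC6A9, which takes up glycine, was the most unequal in the upward direction, with a log2 difference of 2.21 ± 0.14 (SE, adjusted p = 7.42e-10). SLC7A5 was higher in MET∆14 cells by 0.79 ± 0.11 (SE, adjusted p = 7.88e-06) and SLC38A2, a glutamine and alanine loader, by 0.67 ± 0.10 (SE, adjusted p = 1.13e-05). SLC3A2, the heavy chain partner of SLC7A5, differed the other way, at -1.47 ± 0.13 (SE, adjusted p = 2.74e-08). SLC38A1 (log2 difference -0.85), SLC7A1 (-0.62), SLC1A5 (-0.60), SLC7A6 (-0.46) and SLC43A1 (-2.08) were lower too. For SLC1A4 the difference was 0.11 ± 0.14 (SE, adjusted p = 0.464), and its libraries at 0 h overlapped between the lines, with 44.3 and 58.6 CPM in wt MET cells around the values of MET∆14 cells. These 9 calls held with any library left out.

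Levels of different genes were compared as CPM per kilobase of the gene's exons (RPKM). In wt MET cells at 0 h, SLC3A2 (236 ± 35.2 RPKM, SD, n = 2), SLC7A5 (215 ± 19.6) and SLC1A5 (205 ± 15.5) led, and neighbours in this order overlapped between replicates. SLC38A2 (116 ± 17), SLC38A1 (80.1 ± 2.31), SLC7A1 (45.8 ± 1.24) and SLC7A6 (22.4 ± 2.11) followed, and no neighbours from SLC1A5 down overlapped. In MET∆14 cells at 0 h, SLC7A5 (370.4 ± 18.4 RPKM) stood first, well above SLC38A2 (185 ± 7.02), SLC1A5 (135 ± 5.12) and SLC3A2 (85.0 ± 4.42). SLC43A1, a facilitated carrier of branched-chain amino acids, was the lowest in both lines, at 1.84 ± 0.36 RPKM in wt MET cells and 0.425 ± 0.156 RPKM in MET∆14 cells. With the longest transcript as the length in place of all exons, SLC3A2 came to 530.1 RPKM in wt MET cells, beside 225 RPKM of SLC7A5, and to 191 RPKM in MET∆14 cells, beside 387 RPKM of SLC7A5 and 156 RPKM of SLC1A5, since the exons of SLC3A2 cover 6392 bases and its longest transcript 2843.

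**Figure D1:**
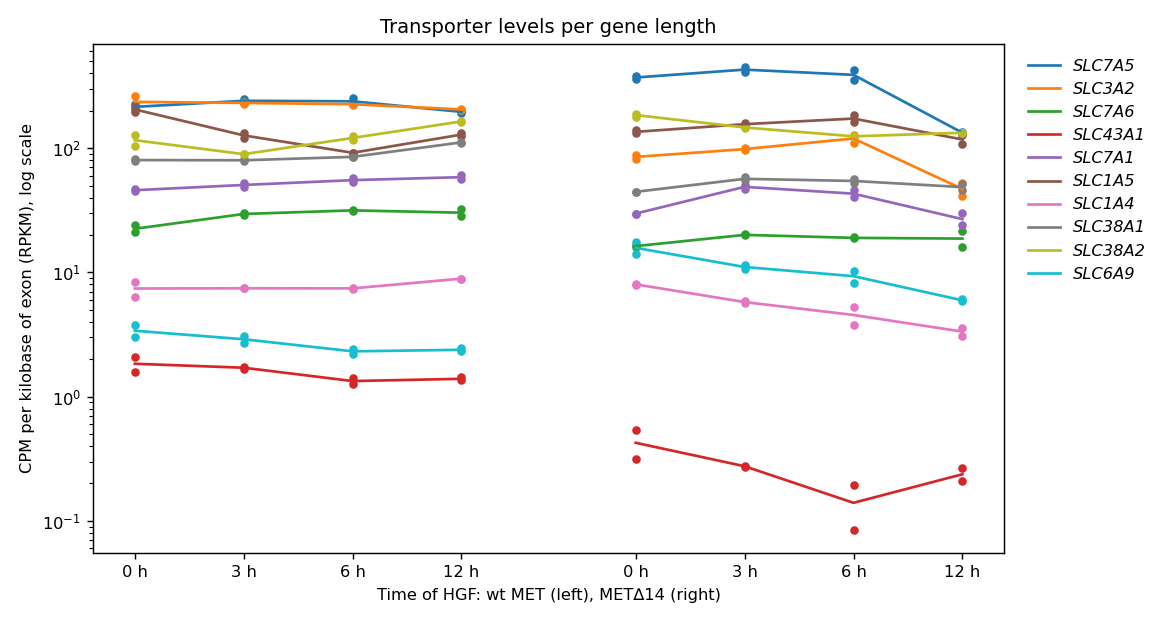
Levels of the 10 transporters as CPM per kilobase of exon (RPKM, log axis) at 0, 3, 6 and 12 h of HGF, wt MET on the left and MET∆14 on the right. Points are libraries and lines join the means of 2. At the exon lengths used, SLC7A5 and SLC3A2 run close in wt MET cells and apart in MET∆14 cells, whereas with the longest transcript they are apart at 0 h in both, and SLC43A1 is lowest throughout.

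With HGF, 5 of the 10 transporters were called at any time in wt MET cells (40.3% of all genes tested) and 9 in MET∆14 cells (54.1%). SLC7A1 and SLC7A5, not among the former, were called in wt MET cells by DESeq2 (adjusted p = 0.00548 and 0.0277). So they were by edgeR without the filter on low counts (adjusted p = 0.0208 and 0.0123) or with the line fitted alone (adjusted p = 0.00178 and 0.0105). SLC43A1 was not called in MET∆14 cells with that line fitted alone (adjusted p = 0.0891). In wt MET cells the calls against 0 h were 3 at 3 h, with 1 higher and 2 lower (17.4% of all genes), 3 at 6 h, with 1 higher and 2 lower (34.2%), and 6 at 12 h, with 4 higher and 2 lower (35.1%). In MET∆14 cells they were 5 at 3 h, with 2 higher and 3 lower (31.7%), 8 at 6 h, with 4 higher and 4 lower (44.1%), and 5 at 12 h, all lower (38.3%, of which 20.1% lower). The median log2 fold change of the 10 genes at 12 h was -0.65 in MET∆14 cells and 0.07 in wt MET cells, beside -0.0241 and -0.00188 over all genes tested. Between 6 and 12 h, 6 of the 10 fell in MET∆14 cells and none rose (18.6% of all genes called, 10.3% lower). In wt MET cells 3 rose and none fell (11.6%, 5.59% higher) by edgeR's test over all libraries. DESeq2 called a fall of SLC7A5 there as well (-0.29, adjusted p = 0.0412). Between 3 and 6 h, 2 changed in wt MET cells (3.10%) and 0 in MET∆14 cells (9.77%), by edgeR's test. In the latter, 3 of the 10 had an unadjusted p under 0.05, and DESeq2 called SLC38A2.

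**Figure D2:**
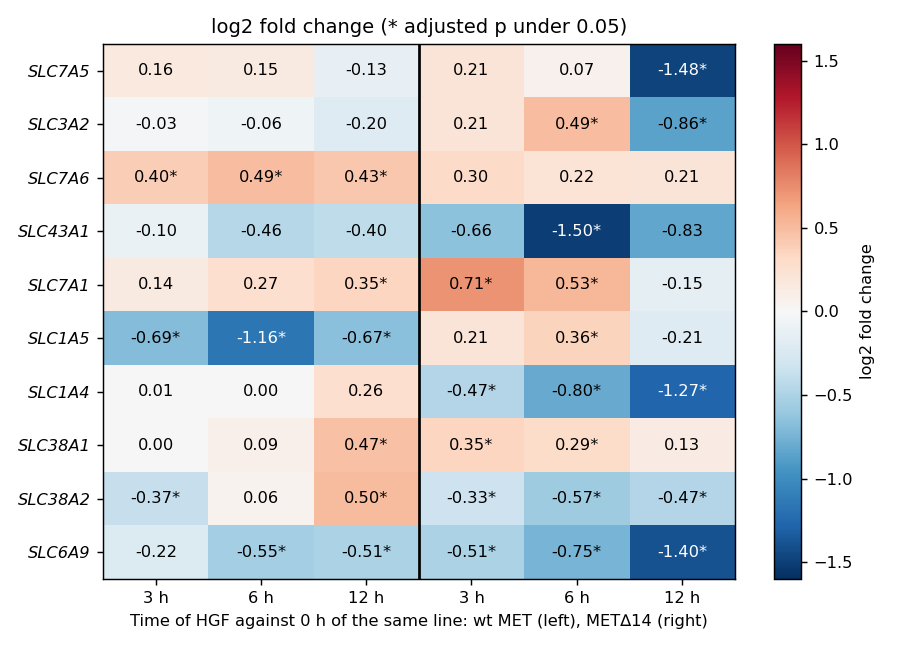
Log2 fold changes of the 10 transporters at 3, 6 and 12 h of HGF against 0 h of the same line, with wt MET in the 3 columns on the left and MET∆14 in the 3 on the right. Asterisks mark an adjusted p under 0.05. The 5 genes called at 12 h in MET∆14 cells were all lower, and SLC1A5 was lower at all times in wt MET cells.

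SLC7A5 and SLC3A2, the chains of the leucine exchanger, fell together between 6 and 12 h in MET∆14 cells. SLC7A5 measured 1827 and 1703 CPM at 0 h, 2139 and 1945 at 3 h, 1684 and 2021 at 6 h and 621 and 646 at 12 h in these cells. Both 12 h libraries lay below every other, including all 8 of wt MET cells. Its log2 fold change was 0.21 ± 0.11 (SE, adjusted p = 0.159) at 3 h and 0.07 ± 0.11 (SE, adjusted p = 0.64) at 6 h, and then -1.48 ± 0.11 (SE, adjusted p = 2.21e-07) at 12 h. From 6 to 12 h alone it fell by 1.55 on the log2 scale (SE 0.11, adjusted p = 1.67e-06). With wt MET, SLC7A5 measured 1089.6 and 958 CPM at 0 h, 1186 and 1105 at 3 h, 1069.8 and 1199 at 6 h and 949 and 917 at 12 h. No time was called there against 0 h. The largest departure from 0 h was 0.16 ± 0.11 (SE, adjusted p = 0.349) at 3 h. From 6 to 12 h the change was -0.28 ± 0.11 (SE, adjusted p = 0.116), with both 12 h libraries below both of 6 h. This fall was called by DESeq2 (-0.29, adjusted p = 0.0412). So it was by edgeR without the filter on low counts (adjusted p = 0.029) or with the line fitted alone (adjusted p = 0.0162). DESeq2 and the fit of wt MET cells alone called the gene at any time (adjusted p = 0.0277 and 0.0105), as did edgeR's test without replicate 1 or 2 of 12 h of MET∆14 cells (adjusted p = 0.0248 and 0.0101). The gene shares 3.84% of its 50-base words with the pseudogene SLC7A5P2, and a part of its reads could have been counted there.

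**Figure D3:**
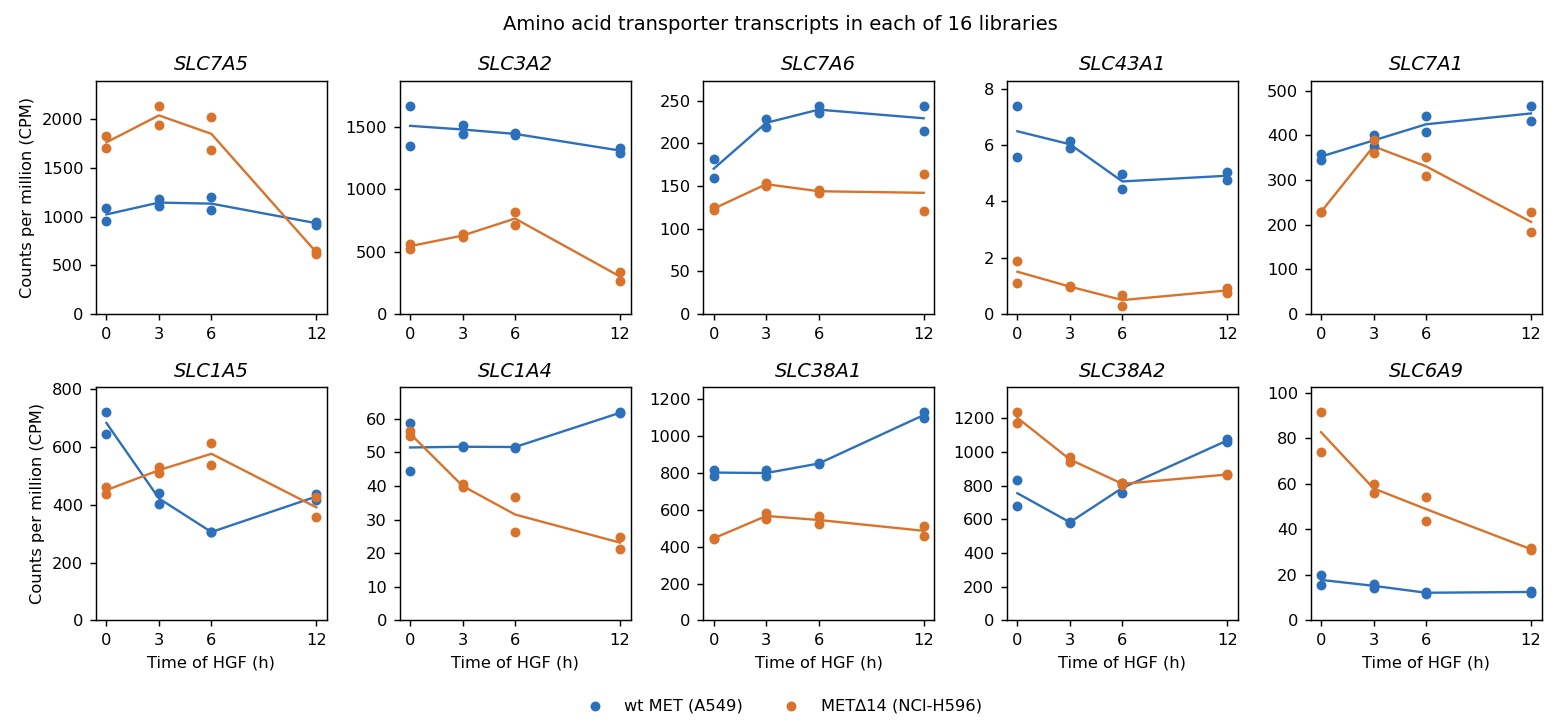
CPM of each transporter in the 16 libraries against hours of HGF, with wt MET in blue and MET∆14 in orange. Points are libraries and lines join the means of 2. SLC7A5, SLC3A2 and SLC7A1 fall between 6 and 12 h in MET∆14 cells, and SLC1A5 falls to 6 h in wt MET cells.

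SLC3A2 measured 563 and 523 CPM at 0 h, 639 and 617 at 3 h, 709.5 and 819 at 6 h and 263 and 336 at 12 h in MET∆14 cells. It was higher at 6 h than in any 0 h library and lowest at 12 h. The log2 fold change was 0.49 ± 0.12 (SE, adjusted p = 0.00443) at 6 h and -0.86 ± 0.12 (SE, adjusted p = 8.37e-05) at 12 h, and -1.35 ± 0.13 (SE, adjusted p = 1.13e-05) from 6 to 12 h. The rise at 6 h was no longer called without replicate 2 of 0 h, at 0.43 (adjusted p = 0.0578), or without replicate 2 of 6 h, at 0.38 (adjusted p = 0.0765). The fall was called with any library left out. Levels of SLC3A2 with wt MET were 1348 and 1666 CPM at 0 h, 1514 and 1441 at 3 h, 1434 and 1450.5 at 6 h and 1327 and 1291 at 12 h. The 0 h replicates there spanned all libraries of the other times but both of 12 h, and no time was called, with -0.20 ± 0.12 (SE, adjusted p = 0.22) at 12 h.

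Because one chain needs the other, their ratio per kilobase was followed in each library. The ratio of SLC7A5 to SLC3A2 lay between 0.771 and 1.11 in the 8 libraries of wt MET cells. In MET∆14 cells it was 4.35 and 4.37 at 0 h, 4.49 and 4.23 at 3 h, 3.18 and 3.31 at 6 h and 3.17 and 2.58 at 12 h. All 8 of these lay above every wt MET library, and the 4 libraries of 6 and 12 h below the 4 of 0 and 3 h. The size of the ratio depends on the lengths used, and its order among libraries does not, because each gene has 1 length in all libraries.

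SLC7A6 (y+LAT2), which trades arginine inside the cell for neutral amino acids and sodium outside, rose in wt MET cells, where it measured 159 and 182 CPM at 0 h, 228 and 219 at 3 h, 236 and 243 at 6 h and 244 and 215 at 12 h. All 6 libraries with HGF were above both at 0 h. The log2 fold changes were 0.40 ± 0.12 (SE, adjusted p = 0.028), 0.49 ± 0.12 (SE, adjusted p = 0.00412) and 0.43 ± 0.12 (SE, adjusted p = 0.00926) at 3, 6 and 12 h. These rises were no longer called without replicate 1 of 0 h, with 0.30 (adjusted p = 0.211), 0.40 (adjusted p = 0.0569) and 0.34 (adjusted p = 0.0991). The rise at 3 h was also lost without either 3 h library (0.39 (adjusted p = 0.112) without replicate 1 and 0.44 (adjusted p = 0.0786) without replicate 2). That at 12 h was lost without replicate 1 of 12 h, at 0.33 (adjusted p = 0.115). With MET∆14, SLC7A6 measured 121 and 126 CPM at 0 h, 154 and 150.4 at 3 h, 142 and 145 at 6 h and 164 and 120.3 at 12 h. The 12 h replicates there enclosed the values of 0 h. No time was called by edgeR's test with TMM factors and the filter over all 16 libraries, with 0.30 ± 0.12 (SE, adjusted p = 0.0616) at 3 h. The rise at 3 h was called by DESeq2 (0.32, adjusted p = 0.0305) and by edgeR with DESeq2's size factors (adjusted p = 0.0408). Without the filter on low counts edgeR called it as well (adjusted p = 0.0199). Without replicate 1 or 2 of 12 h the gene was called at any time (adjusted p = 0.00179 and 0.0014). Of the exon length of SLC7A6, 44.4% overlaps SLC7A6OS on the opposite strand, and reads of both genes cannot be told apart where counting ignored strand.

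SLC43A1, at 7.38 and 5.59 CPM at 0 h, 6.14 and 5.9 at 3 h, 4.96 and 4.44 at 6 h and 4.76 and 5.05 at 12 h, was not called at any time in wt MET cells. With MET∆14 it held only 4 to 38 counts per library. Its levels there were 1.11 and 1.89 CPM at 0 h, 0.977 and 0.962 at 3 h, 0.299 and 0.685 at 6 h and 0.931 and 0.742 at 12 h, below every wt MET library. The log2 fold change at 6 h was -1.50 ± 0.37 (SE, adjusted p = 0.00389), which was not called without replicate 2 of 0 h, at -1.05 (adjusted p = 0.0886). At 12 h it was -0.83 ± 0.36 (SE, adjusted p = 0.0772), and -1.14 (adjusted p = 0.0367) without replicate 1 of 0 h. No change was detected after 6 h, with 0.67 ± 0.43 (SE, adjusted p = 0.282) from 6 to 12 h.

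SLC7A1 (CAT1), the main carrier of arginine and lysine, rose early in MET∆14 cells and fell again between 6 and 12 h. It measured 229 and 229 CPM at 0 h, 391 and 360.1 at 3 h, 309 and 352 at 6 h and 229 and 183 at 12 h. The 4 libraries of 3 and 6 h were all above those of 0 and 12 h. The log2 fold change was 0.71 ± 0.11 (SE, adjusted p = 0.000108) at 3 h, 0.53 ± 0.11 (SE, adjusted p = 0.000812) at 6 h and -0.15 ± 0.11 (SE, adjusted p = 0.298) at 12 h. From 6 to 12 h it was -0.68 ± 0.11 (SE, adjusted p = 0.000625). Without replicate 1 of 12 h, the fall of the gene below its 0 h level was called at 12 h, at -0.32 (adjusted p = 0.00884). Levels with wt MET were 359 and 346 CPM at 0 h, 400.1 and 377 at 3 h, 407 and 442 at 6 h and 466 and 432 at 12 h, with every library with HGF above both at 0 h. Only 12 h was called there, at 0.35 ± 0.10 (SE, adjusted p = 0.0177). It was not called without replicate 1 of 0 h (0.38 (adjusted p = 0.0543)), replicate 2 of 0 h (0.32 (adjusted p = 0.0818)) or replicate 1 of 12 h (0.29 (adjusted p = 0.142)). The value at 6 h, 0.27 ± 0.11 (SE, adjusted p = 0.0607), was called by DESeq2 (adjusted p = 0.0147) and without replicate 1 or 2 of 6 h or of 12 h of MET∆14 cells (adjusted p between 0.00226 and 0.0442).

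SLC1A5 (ASCT2), the sodium-dependent exchanger of glutamine, fell at every time in wt MET cells, whereas in MET∆14 cells it was higher at 6 h. It measured 719 and 646 CPM at 0 h, 441 and 403 at 3 h, 305 and 306 at 6 h and 418 and 439 at 12 h in the former. All 6 libraries with HGF lay below both at 0 h, lowest at 6 h. The log2 fold changes were -0.69 ± 0.10 (SE, adjusted p = 0.000234), -1.16 ± 0.10 (SE, adjusted p = 1.24e-06) and -0.67 ± 0.10 (SE, adjusted p = 0.000157) at 3, 6 and 12 h, called with any library left out. Part of the fall was regained, with 0.49 ± 0.10 (SE, adjusted p = 0.00588) from 6 to 12 h. This call was lost without either 6 h library (0.45 (adjusted p = 0.0765) and 0.46 (adjusted p = 0.0722)) or replicate 2 of 12 h (0.43 (adjusted p = 0.0807)). The step from 3 to 6 h, -0.47 ± 0.10 (SE, adjusted p = 0.0209), was lost without any of its 4 libraries, with adjusted p between 0.0788 and 0.24.

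SLC1A5 in MET∆14 cells measured 463 and 439 CPM at 0 h, 529 and 509.9 at 3 h, 539 and 614 at 6 h and 357 and 425 at 12 h. The libraries of 3 and 6 h were above those of 0 h and those of 12 h below them. At 6 h it had risen, with a log2 change of 0.36 ± 0.10 (SE, adjusted p = 0.00985), which was not called without replicate 2 of 0 h (0.31 (adjusted p = 0.0913)) or of 6 h (0.25 (adjusted p = 0.14)). From 6 to 12 h it fell, with a log2 change of -0.56 ± 0.10 (SE, adjusted p = 0.00179), with any library left out. At 12 h against 0 h the value was -0.21 ± 0.10 (SE, adjusted p = 0.13), called without replicate 2 of 12 h at -0.35 (adjusted p = 0.0026). Of the exon length of SLC1A5, 23.4% overlaps an unnamed gene (ENSG00000275719) on the opposite strand.

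SLC1A4 (ASCT1), the relative of SLC1A5 that prefers alanine, serine and cysteine, fell in MET∆14 cells. It measured 56.3 and 54.9 CPM at 0 h, 39.6 and 40.5 at 3 h, 26.3 and 36.7 at 6 h and 21.3 and 24.9 at 12 h there. Each later time had both libraries below both of the time before. The log2 fold change was -0.47 ± 0.14 (SE, adjusted p = 0.0167) at 3 h, -0.80 ± 0.14 (SE, adjusted p = 0.000266) at 6 h and -1.27 ± 0.15 (SE, adjusted p = 9.86e-06) at 12 h. The calls at 6 and 12 h held with any library left out. That at 3 h was lost without any of its 4 libraries (log2 fold changes between -0.49 and -0.45, adjusted p between 0.0644 and 0.0975). The step from 6 to 12 h, -0.47 ± 0.15 (SE, adjusted p = 0.0389), was not called without replicate 2 of 6 h or replicate 1 of 12 h, with -0.19 (adjusted p = 0.493) and -0.37 (adjusted p = 0.265), nor without any of 10 libraries of other conditions (adjusted p between 0.0579 and 0.06). With wt MET, SLC1A4 measured 58.6 and 44.3 CPM at 0 h, 51.9 and 51.5 at 3 h, 51.4 and 51.8 at 6 h and 61.7 and 61.9 at 12 h. No time was called by edgeR's test over all 16 libraries. With the line fitted alone, 12 h was called, at 0.28 (adjusted p = 0.0315). Without replicate 1 of 0 h the change at 12 h was 0.48, since the other 0 h library was the lowest of the line.

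SLC38A2 (SNAT2), the sodium-coupled transporter that cells induce when amino acids are short, was lower at all times in MET∆14 cells and, after a lower level at 3 h, higher at 12 h in wt MET cells. With MET∆14 it measured 1234 and 1169 CPM at 0 h, 969 and 941 at 3 h, 803 and 817 at 6 h and 864 and 867 at 12 h. All 6 libraries with HGF were below both at 0 h. The log2 fold changes were -0.33 ± 0.10 (SE, adjusted p = 0.0162), -0.57 ± 0.10 (SE, adjusted p = 0.000227) and -0.47 ± 0.10 (SE, adjusted p = 0.00134) at 3, 6 and 12 h. The call at 3 h was lost without replicate 1 of 0 h (-0.29 (adjusted p = 0.115)) and without replicate 1 (-0.35 (adjusted p = 0.0735)) or replicate 2 (-0.31 (adjusted p = 0.0978)) of 3 h. The later calls held with any library left out.

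SLC38A2 in wt MET cells measured 833 and 676 CPM at 0 h, 579 and 585 at 3 h, 756 and 817 at 6 h and 1057 and 1079 at 12 h. Both libraries of 3 h were the lowest of the line and both of 12 h the highest. It was lower at 3 h, with a log2 change of -0.37 ± 0.10 (SE, adjusted p = 0.0144). This call was lost without replicate 1 of 0 h (-0.22 (adjusted p = 0.178)) and without replicate 1 (-0.34 (adjusted p = 0.117)) or 2 (-0.36 (adjusted p = 0.101)) of 3 h. At 12 h it was higher, with a log2 change of 0.50 ± 0.10 (SE, adjusted p = 0.00105), with any library left out. The steps from 3 to 6 h (0.43) and from 6 to 12 h (0.44) were each called over all libraries. The first was lost without any of its 4 libraries (adjusted p between 0.0768 and 0.277). The second was lost without replicate 1 of 6 h (0.36 (adjusted p = 0.137)) or without replicate 1 (0.43 (adjusted p = 0.07)) or 2 (0.40 (adjusted p = 0.0851)) of 12 h.

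SLC38A1 (SNAT1), its neighbour on chromosome 12 with similar substrates, rose in both lines but at different times. With wt MET it measured 819 and 786 CPM at 0 h, 785 and 814 at 3 h, 854 and 849.5 at 6 h and 1129 and 1101 at 12 h. The 12 h libraries were above all others of the line, with a log2 change of 0.47 ± 0.084 (SE, adjusted p = 0.000529) against 0 h, with any library left out. The step from 6 to 12 h was 0.39 ± 0.083 (SE, adjusted p = 0.00693), lost without any of its 4 libraries (adjusted p between 0.0594 and 0.0986). Levels with MET∆14 were 444 and 447 CPM at 0 h, 582 and 552 at 3 h, 526 and 565 at 6 h and 513 and 460.0 at 12 h. Every library with HGF was above both at 0 h. Here 3 h (0.35 ± 0.084 (SE, adjusted p = 0.00517)) and 6 h (0.29 ± 0.084 (SE, adjusted p = 0.0107)) were called and 12 h (0.13 ± 0.084 (SE, adjusted p = 0.256)) was not. The call at 3 h was lost without replicate 1 of 3 h (0.32 (adjusted p = 0.0526)). That at 6 h was lost without replicate 1 (0.28 (adjusted p = 0.0735)) or 2 (0.29 (adjusted p = 0.0628)) of 0 h or replicate 2 of 6 h (0.23 (adjusted p = 0.112)). Without replicate 2 of 12 h, 12 h was called as well, at 0.19 (adjusted p = 0.0373).

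SLC6A9 (GlyT1), which loads glycine with sodium and chloride, fell with time in MET∆14 cells. It measured 91.4 and 74.0 CPM at 0 h, 60.0 and 56.0 at 3 h, 43.5 and 54.3 at 6 h and 31.7 and 30.8 at 12 h there. Both 12 h libraries were below every earlier one, and none of them reached down to wt MET cells. The log2 fold change was -0.51 ± 0.13 (SE, adjusted p = 0.00614) at 3 h, -0.75 ± 0.13 (SE, adjusted p = 0.000218) at 6 h and -1.40 ± 0.13 (SE, adjusted p = 1.74e-06) at 12 h. The call at 3 h was lost without replicate 1 of 0 h (-0.35 (adjusted p = 0.105)) or replicate 2 of 3 h (-0.46 (adjusted p = 0.0598)). The step from 6 to 12 h, -0.65 ± 0.13 (SE, adjusted p = 0.00403), was lost without replicate 2 of 6 h (-0.47 (adjusted p = 0.0865)). Levels in wt MET cells were 19.8 and 15.8 CPM at 0 h, 16.2 and 14.2 at 3 h, 12.6 and 11.6 at 6 h and 12.8 and 12.2 at 12 h. The 4 libraries of 6 and 12 h were below those of 0 h, with a log2 change of -0.55 ± 0.15 (SE, adjusted p = 0.0124) at 6 h and -0.51 ± 0.15 (SE, adjusted p = 0.0172) at 12 h. Without replicate 1 of 0 h these were -0.37 (adjusted p = 0.153) and -0.33 (adjusted p = 0.199). The calls were also lost without replicate 2 of 6 h (-0.47 (adjusted p = 0.0985)) and without replicate 1 (-0.56 (adjusted p = 0.0612)) or 2 (-0.48 (adjusted p = 0.0805)) of 12 h.

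The response itself differed between the lines for 8 of the 10 transporters, by an F test of the difference over the 3 times that called 37.6% of all genes. SLC7A6 (adjusted p = 0.477) and SLC43A1 (adjusted p = 0.275) were not called, and SLC7A6 was called without replicate 1 of 12 h of MET∆14 cells (adjusted p = 0.00823). At 3 h, 2 differed (17.4% of all genes), at 6 h 4 (30.2%) and at 12 h 8, of which 7 were more negative in MET∆14 cells (24.0%, of which 11.0% more negative). SLC38A1 came near a call at 3 h, at 0.35 ± 0.12 (SE, adjusted p = 0.0532). It was called there by DESeq2 (adjusted p = 0.000852) and by edgeR with DESeq2's size factors (adjusted p = 0.0473). Without the filter on low counts edgeR called SLC1A4 at 3 h (-0.50, adjusted p = 0.029). Further transporters were called at 3 or 6 h when single libraries were left out. The difference of log2 fold changes at 12 h, MET∆14 minus wt MET, was -1.54 ± 0.20 (SE, adjusted p = 7.55e-05) for SLC1A4, the largest in size. For SLC7A5 it was -1.34 ± 0.15 (SE, adjusted p = 2.82e-05), for SLC38A2 -0.97 ± 0.14 (SE, adjusted p = 0.000143) and for SLC6A9 -0.89 ± 0.20 (SE, adjusted p = 0.00457). These 4 were called with any library left out.

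SLC3A2 (-0.66), SLC7A1 (-0.50) and SLC38A1 (-0.35) were the others more negative in MET∆14 cells at 12 h. Without the filter on low counts edgeR did not call SLC38A1 (-0.34, adjusted p = 0.0956). For SLC3A2 the call was lost without replicate 1 of 0 h (-0.51 (adjusted p = 0.0568)) or 12 h (-0.62 (adjusted p = 0.056)) of wt MET cells or replicate 1 of 0 h of MET∆14 cells (-0.60 (adjusted p = 0.0646)). For SLC7A1 it was lost without replicate 2 of 0 h (-0.47 (adjusted p = 0.0634)) or replicate 1 of 12 h (-0.43 (adjusted p = 0.102)) of wt MET cells, or without replicate 1 (-0.50 (adjusted p = 0.0664)) or 2 (-0.49 (adjusted p = 0.0659)) of 0 h of MET∆14 cells. The call of SLC38A1 was lost without any of the 14 libraries outside MET∆14 at 12 h (adjusted p between 0.0561 and 0.147). SLC1A5 was the exception in direction, with a higher log2 fold change in MET∆14 cells at every time and a difference of 0.90 ± 0.14 (SE, adjusted p = 0.000498) at 3 h, 1.52 ± 0.14 (SE, adjusted p = 2.52e-06) at 6 h and 0.47 ± 0.14 (SE, adjusted p = 0.0268) at 12 h. Its values at 3 and 6 h held with any library left out. That at 12 h was lost without replicate 1 of 0 h (0.39 (adjusted p = 0.0942)) or replicate 1 (0.44 (adjusted p = 0.0999)) or 2 (0.50 (adjusted p = 0.059)) of 12 h of wt MET cells, or without replicate 1 (0.51 (adjusted p = 0.0582)) or 2 (0.43 (adjusted p = 0.0976)) of 0 h of MET∆14 cells. At 3 h SLC7A1 was the other gene called, with a larger rise in MET∆14 cells and a difference of 0.57 ± 0.15 (SE, adjusted p = 0.0146). Its adjusted p was 0.0563 to 0.0758 without replicate 2 of 3 h of wt MET cells, either 0 h library or replicate 1 of 3 h of MET∆14 cells. At 6 h SLC1A4 (-0.81), SLC38A2 (-0.63) and SLC3A2 (0.56) were called beside SLC1A5, the last with an adjusted p between 0.0501 and 0.16 without any of 11 libraries, highest without replicate 2 of 0 h of wt MET cells. Over the 3 times, SLC6A9 was not called without replicate 1 of 12 h of wt MET cells (adjusted p = 0.0718), and the other 7 were called with any library left out.

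**Figure D4:**
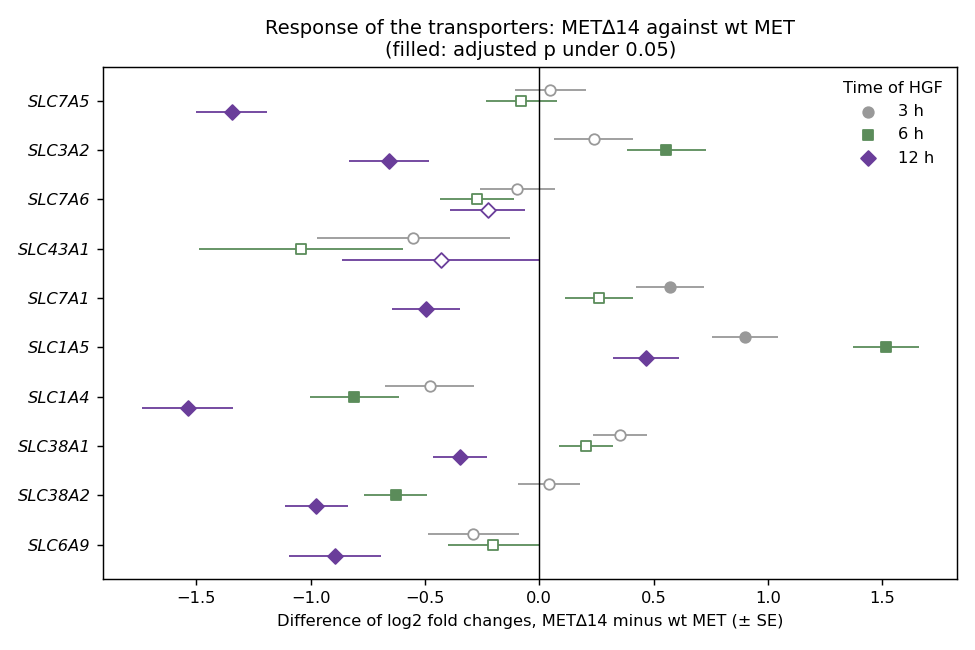
Difference of the log2 fold changes against 0 h, MET∆14 minus wt MET, for each transporter at 3, 6 and 12 h of HGF. Bars are ± SE and filled symbols have an adjusted p under 0.05. At 12 h 7 genes are called to the left of 0 and SLC1A5 to the right.

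A model with the line and a common time course, a formula that the paper gives for DESeq2, was fitted in edgeR as well. The test of its times called 4 of the 10 transporters and 30.6% of all genes. These were SLC6A9 (mean log2 fold change -0.67, adjusted p = 0.00147), SLC7A6 (0.34, adjusted p = 0.0249), SLC7A5 (-0.14, adjusted p = 0.0206) and SLC3A2 (-0.05, adjusted p = 0.032). SLC1A5, SLC1A4 and SLC38A2, whose courses went apart in the lines, were not called in it (adjusted p = 0.275, 0.281 and 0.192). Without the filter on low counts they were called (adjusted p = 0.00145, 0.00853 and 0.00715), and SLC38A1 was then the only transporter of the 10 not called (adjusted p = 0.145). The calls of SLC7A5 and SLC3A2 were lost without replicate 1 (adjusted p = 0.0721 and 0.0821) or 2 (adjusted p = 0.0659 and 0.0887) of 12 h of MET∆14 cells. That of SLC7A6 was lost without replicate 1 or 2 of 0 h of wt MET cells (adjusted p = 0.105 and 0.0512). In this model a different response of the lines counts as spread, which it does not in the model with 1 coefficient per condition.

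Likeness of the courses was measured between pairs of transporters as the root mean square difference of their 6 log2 fold changes against 0 h, which share the 0 h libraries of each line. The closest pairs were SLC7A1 with SLC38A1 (0.237), SLC7A6 with SLC38A1 (0.238) and SLC7A1 with SLC7A6 (0.293). SLC3A2 and SLC7A5 came next (0.329), closer in wt MET cells (0.169), where edgeR over all libraries called neither, than in MET∆14 cells (0.433). SLC1A4 and SLC6A9 differed by only 0.0825 in MET∆14 cells and by 0.563 in wt MET cells. SLC7A6 with SLC38A1 was the closest pair in MET∆14 cells (0.0671), and SLC1A5 stood at 0.621 or more from each of the others.

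Summed per kilobase, the 10 transporters came to between 837 and 947 RPKM in the 8 libraries of wt MET cells. In MET∆14 cells the sum was 916 and 864 RPKM at 0 h, 1003 and 941 at 3 h, 873 and 999 at 6 h, and 523 and 544 at 12 h. Both 12 h libraries thus lay below all other 14 at the exon lengths used. The sums depend on these lengths, whose choice matters most for SLC3A2, and they were not computed with the longest transcript. SLC7A5 was the largest term at 6 h (389 ± 50 RPKM, SD, n = 2) and measured 133 ± 3.71 RPKM at 12 h, next to SLC38A2 at 133 ± 0.313 RPKM.

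Of 28 further genes of plasma membrane amino acid transporters, 3 had no counts and 17 were tested, and 8 of these were called at any time in each line, beside 40.3% of all genes in wt MET and 54.1% in MET∆14 cells. At 12 h in MET∆14 cells 2 were higher and 6 lower (38.3% of all genes called, 20.1% lower). SLC1A3, a glutamate transporter that had 0 to 3 counts in each wt MET library, measured 489.7 ± 24.5 CPM (SD, n = 2) at 0 h and 175 ± 12.9 CPM at 12 h in MET∆14 cells, and the change was -1.48 ± 0.11 (SE, adjusted p = 2.83e-07) on the log2 scale. SLC43A2, the relative of SLC43A1, fell in both lines, with a log2 change of -1.11 ± 0.20 (SE, adjusted p = 0.000672) in wt MET cells and -1.44 ± 0.17 (SE, adjusted p = 1.4e-05) in MET∆14 cells at 12 h. SLC36A1, a proton-coupled carrier of small amino acids, was higher at 12 h in both, by 0.44 and 0.50. SLC6A17, with 0 counts in every library of MET∆14 cells, rose in wt MET cells from 5.51 ± 0.191 to 11.0 ± 1.75 CPM. SLC7A11, the cystine light chain that shares SLC3A2, changed in MET∆14 cells, with 0.84 ± 0.18 (SE, adjusted p = 0.00252) at 3 h and -0.94 ± 0.18 (SE, adjusted p = 0.0011) at 12 h, and was lower in wt MET cells at 6 h, with a log2 change of -0.70 ± 0.18 (SE, adjusted p = 0.00909). The F test of a different response called 2 of the 17 and 37.6% of all genes.

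Of 22 enzymes that make or interconvert amino acids, all tested, 11 were called at any time in wt MET cells (2 with a higher and 9 with a lower mean) and 14 in MET∆14 cells (4 higher, 10 lower). Over all genes these shares were 40.3% and 54.1%. Between 6 and 12 h in MET∆14 cells 9 were lower and none higher (18.6% of all genes called, 10.3% lower). GOT1, an aspartate aminotransferase, rose by 0.68 in wt MET cells and fell by 0.55 on the log2 scale in MET∆14 cells. GLUL, glutamine synthetase, measured 7.22 ± 0.388 CPM at 0 h in wt MET cells and 189 ± 11.8 CPM in MET∆14 cells, where it was lower at 12 h, with a log2 change of -1.13 ± 0.12 (SE, adjusted p = 4.67e-06). PSPH, which makes serine, was lower in MET∆14 cells at 12 h, with a log2 change of -0.81 ± 0.13 (SE, adjusted p = 0.000153). In wt MET cells the proline enzyme PYCR3 (-1.02) and CBS (-0.98), of cysteine synthesis, were lower at 12 h, and ALDH18A1, of proline synthesis, was higher at 12 h in MET∆14 cells (0.47).

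Of 22 genes of the amino acid response and of amino acid sensing, 9 were higher and none lower at 12 h in wt MET cells. Of all genes, 35.1% were called there, higher and lower together. In MET∆14 cells 2 of the 22 were higher and 10 lower (38.3% of all genes called, of which 20.1% lower). The responses differed at 12 h for 12, of which 11 were more negative in MET∆14 cells (24.0% of all genes, 11.0% more negative). The median difference of the list was -0.57 beside -0.58 for the 10 transporters and 0.01 for all genes tested. DDIT3, a transcription factor downstream of ATF4, was higher at 12 h in wt MET cells, with a log2 change of 0.58 ± 0.13 (SE, adjusted p = 0.00257) and lower in MET∆14 cells, with a log2 change of -1.65 ± 0.15 (SE, adjusted p = 1.48e-06). CHAC1, another target of ATF4, was lower at 3 h in wt MET cells (-1.39 ± 0.20 (SE, adjusted p = 0.000194)) and lower at 12 h in MET∆14 cells (-1.41 ± 0.20 (SE, adjusted p = 6.23e-05)). PPP1R15A, which brings down eIF2α phosphorylation, rose in wt MET cells (12 h, 0.49) and was lower in MET∆14 cells at 12 h (-0.70). CEBPB, the partner at the composite element shown above, was higher at 3 h in MET∆14 cells, with a log2 change of 0.84 ± 0.16 (SE, adjusted p = 0.00116). VLDLR was lower at 6 h in wt MET cells (-1.20), and EIF2AK4, the kinase that senses uncharged tRNA, was higher at 12 h in MET∆14 cells (0.43). These lists are background to the 10 transporters, and no test of a list as a whole was made.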

How the data were processed

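RNA of 16 libraries was sequenced. Adapters were trimmed and reads aligned to hg38 by STAR, and the authors deposited whole-number counts per gene, not normalized. The submitters' processing notes list STAR 2.5.0 and RSEM 1.3.2 with no role, and the counting tool, annotation and use of strand are not given in the sources used here, so the counts may be rounded estimates and overlapping genes are uncertain. The table's columns name the wt MET line slightly differently from the titles, and their time and replicate number gave the sample. Total counts were 13226488 to 21970052 per library in wt MET cells and 10158590 to 23909304 in MET∆14 cells, which sets the counting error of low genes such as SLC43A1.

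Tests used edgeR 4.0.16 (limma 3.58.1, R 4.3.3). Low genes were removed with filterByExpr at its settings of 10 for the count and 15 for the total, library sizes were scaled by TMM, and a robust quasi-likelihood model with 1 coefficient per condition was fitted to all 16 libraries. The table of 42351 genes left 15067 for testing, with a common biological coefficient of variation of 0.0868. F tests over the 3 times, or over the 3 differences between the lines, gave genes changed at any time and genes with a different response. Adjustment (Benjamini and Hochberg) was over the 15067 genes, and a call needed an adjusted p under 0.05. The SE is the size of the fitted log2 fold change divided by the square root of F. RPKM used the union of annotated exons (GENCODE on hg38). Replicates are labelled as biological replicates, and p-values measure the spread between 2 libraries per condition, pooled over conditions.

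The 10 transporters and the other lists were chosen with earlier results of these data known. From each other list, the genes named were up to 2 with the largest positive and 2 with the largest negative mean change per line among those called at a mean log2 CPM no lower than 3. A gene that this rule names is not reported here. Scripts were tested on simulated data. The alternatives were the full DESeq2 1.42.0 test, its size factors alone within edgeR, no filter beyond 1 count in the table, a minimum of 10 counts in every library, an absolute log2 fold change of at least 1, each line alone, the replicate number as a block, each library left out, the longest transcript as length and a prior count of 0.5 for the likeness. Libraries of other cells named in the paper were not analysed here.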

Additional observations from a re-analysis of the deposited data

Results flagged for a closer look

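The response to HGF differed between the lines for 8 of the 10 transporters by edgeR's F test of the difference itself over the 3 times, at which 37.6% of all genes tested were called. The adjusted p was 1.09e-05 for SLC1A5, 1.61e-05 for SLC7A5, 7.34e-05 for SLC38A2, 0.000211 for SLC1A4, 0.00035 for SLC7A1, 0.000461 for SLC3A2, 0.00143 for SLC38A1 and 0.013 for SLC6A9. The mean difference of log2 fold changes over the times, MET∆14 minus wt MET, was 0.96 for SLC1A5, -0.94 for SLC1A4, -0.52 for SLC38A2, and -0.46 for both SLC7A5 and SLC6A9. For SLC7A1 (0.11), SLC38A1 (0.07) and SLC3A2 (0.05) the differences at 3 and 6 h were positive and those at 12 h negative, so that the mean is small. Line and MET status cannot be told apart in these differences.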

How the results depend on the processing

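Numbers of transporters called are given here as the value over all libraries, then the lowest and highest with 1 library left out. In wt MET cells these were 5 (3 to 7) at any time, 3 (1 to 3) at 3 h, 3 (1 to 4) at 6 h, 6 (3 to 6) at 12 h, 2 (0 to 2) from 3 to 6 h and 3 (0 to 4) from 6 to 12 h. In MET∆14 cells they were 9 (7 to 10) at any time, 5 (2 to 7) at 3 h, 8 (4 to 9) at 6 h, 5 (5 to 8) at 12 h, 0 (0 to 2) from 3 to 6 h and 6 (4 to 6) from 6 to 12 h. They were 8 (7 to 9) for a different response, 9 (9 to 9) between the lines at 0 h and 4 (2 to 5) in the additive model. A left-out library leaves its condition with 1 sample, which is assumed to vary like the others. With a log2 fold change of at least 1 required, fewer are called by construction: in wt MET cells 1 at any time, 0 at 3 h, 1 at 6 h, 0 at 12 h, 0 from 3 to 6 h and 0 from 6 to 12 h, in MET∆14 cells 4 at any time, 0 at 3 h, 1 at 6 h, 3 at 12 h and 2 from 6 to 12 h, 3 for a different response, 3 at 0 h and 0 in the additive model. Each line fitted alone gave 3 at 3 h in MET∆14 cells, DESeq2 and no filter each 1 from 3 to 6 h, and no filter 9 in the additive model. The cause was not tested.

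Over all genes, 467 were called from 3 to 6 h in wt MET cells, against 860 without a filter and 951 with the line alone. The line alone also gave 2801 against 1743 from 6 to 12 h in wt MET cells, and 695 against 1472 and 1422 against 2806 for the same steps in MET∆14 cells. Directions that turned were means over times near 0. With 1 library left out, the mean of SLC38A2 in wt MET cells lay between -0.0629 and 0.221, that of SLC3A2 in MET∆14 cells between -0.12 and 0.00598, the mean difference of SLC3A2 between the lines from -0.133 to 0.192 and its additive mean from -0.0981 to 0.0161. Those of SLC38A2 and the additive mean turned when replicate 2 of 0 h with wt MET was left out, the additive and MET∆14 means of SLC3A2 when replicate 1 of 12 h with MET∆14 was, and the difference when replicate 2 of 0 h of either line or of 6 or 12 h with MET∆14 was. The difference of SLC3A2 was -0.00167 where 10 counts were required in every library. Replicate numbers gave no sign of pairing over all genes tested. The deviations of same-numbered libraries correlated at -0.159 to 0.111 (median -0.0206, 28 pairs of conditions, 1 over 0.1). Such values cannot show how the cultures were grouped. With the replicate number as a block, 2 of 180 values lost their call, SLC1A4 from 6 to 12 h in MET∆14 cells (adjusted p = 0.0503) and the difference of SLC38A1 at 12 h (adjusted p = 0.0527). The longest transcript as length multiplied RPKM by 1.05 to 2.25, most for SLC3A2. The fewest counts among the 10 were those of SLC43A1, at 4 to 38 in MET∆14 libraries, where counting error is largest.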
